A study of Mus musculus with 8 samples.

Results

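The acetylated chromatin contacts of 8 genes of the zinc finger silencing machinery, Trim28, Setdb1, Atf7ip, Cbx5, Cbx1, Cbx3, Morc3 and Hells, were examined in mouse embryonic stem cells. A loop, here a pair of merged 5-kb bins on 1 chromosome with its count of read pairs, was taken when at least 1 of its anchors lay within 5 kb of an annotated GRCm38 transcription start of one of these genes. This gave 552 of the 415681 loops in the table, at 10 of its 30044 anchors, in all 8 libraries. The method was H3K27ac HiChIP, which ligates neighbouring chromatin fragments inside fixed nuclei and enriches those with acetylated lysine 27 of histone H3, a mark of active promoters and enhancers. Per the labels' protocols, chromatin was cut with micrococcal nuclease. The study compared 4 cell lines: B6 (C57BL/6J, line B6 5-1), D2 (DBA/2J, line D2 5-5) and a pair of reciprocal congenic lines. B6-13D2 (B6.D2-(rs30079041-rs51756099)/Bakr, line QJ 6-1) had the B6 genome with a D2 interval, and D2-13B6 (D2.B6-(rs29224292-rs13469455)/Bakr, line XE 2-4) had the D2 genome with a B6 interval. The line names place the interval on chromosome 13, and the series text gave another end marker for D2-13B6 than the sample labels. All lines were grown alike, in medium with serum, LIF and the inhibitors PD0325901 and CHIR99021. Each genotype was 1 cell line with 2 technical replicates, so every p-value below measures the spread between libraries of one line, and a difference between lines cannot be told apart from a difference between genotypes.

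KRAB zinc finger proteins bind DNA, above all transposable elements, and recruit TRIM28, also called KAP1, a corepressor that itself binds no DNA sequence. TRIM28 brings in the histone methyltransferase SETDB1, which its partner ATF7IP stabilises in the nucleus, and the methylated lysine 9 of histone H3 they leave is bound by the heterochromatin protein 1 family, encoded by Cbx5, Cbx1 and Cbx3. MORC3 is an ATPase that takes part in silencing transposable elements, and HELLS, also called LSH, is a chromatin remodeller needed for normal DNA methylation of repeats. The genes lie on chromosomes 7, 3, 6, 15, 11, 16 and 19, with Atf7ip and Cbx3 both on chromosome 6, and none lies on chromosome 13.

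The anchors differed in what they held. Trim28 shared its 40-kb anchor (chr7:13005001-13045000) with the starts of Chmp2a, Ube2m and Zbtb45. Cbx5 shared 55 kb (chr15:103200001-103255000) with Hnrnpa1 and Nfe2, Cbx1 shared 70 kb (chr11:96765001-96835000) with Nfe2l1 and Snx11, and Cbx3 shared 25 kb (chr6:51455001-51480000) with Hnrnpa2b1. The Morc3 anchor, the widest at 80 kb (chr16:93805001-93885000), also held starts of Chaf1b and Dop1b. In such anchors the contacts of the named gene and of its neighbours cannot be told apart. Setdb1 had 1 anchor of 5 kb (chr3:95355001-95360000), and Hells had a pair of 10 kb each (chr19:38925001-38935000 and chr19:38940001-38950000), all without another coding start. Atf7ip had a pair of 45 kb each (chr6:136460001-136505000 and chr6:136515001-136560000). The first of these was the only anchor that held no start of its gene, 1167 bp from the nearest one, and it was the anchor just inside the 5-kb limit. Just outside lay a Setdb1 anchor 12.1 kb from a start with 783 counts and a Trim28 anchor 14.1 kb away with 2602 counts.

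The sequences just upstream of 4 of the genes are shown because each of these genes, off chromosome 11, had a called difference in its summed contacts or in 1 of its loops that held in at least 16 of the alternative analyses. They are from RefSeq's GRCm38.p6 annotation, end before the first annotated exon, and are given 5′ to 3′ on the strand of the gene. Capitals mark matches on either strand to the GC box GGGCGG or to the CCAAT box CCAAT and, for Cbx5, to the E-box CACGTG.
Trim28 (chr7:13023902-13024151, plus strand): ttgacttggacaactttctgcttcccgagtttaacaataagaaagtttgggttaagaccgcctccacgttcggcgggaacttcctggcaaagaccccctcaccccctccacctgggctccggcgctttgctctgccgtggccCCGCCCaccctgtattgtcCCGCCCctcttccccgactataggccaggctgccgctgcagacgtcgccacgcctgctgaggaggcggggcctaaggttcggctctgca
Atf7ip (chr6:136518601-136518801, plus strand): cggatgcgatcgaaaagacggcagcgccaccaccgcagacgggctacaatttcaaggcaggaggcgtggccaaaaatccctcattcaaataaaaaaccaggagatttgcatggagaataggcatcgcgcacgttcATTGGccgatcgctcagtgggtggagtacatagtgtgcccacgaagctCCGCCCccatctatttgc
Cbx5 (chr15:103239853-103240102, minus strand): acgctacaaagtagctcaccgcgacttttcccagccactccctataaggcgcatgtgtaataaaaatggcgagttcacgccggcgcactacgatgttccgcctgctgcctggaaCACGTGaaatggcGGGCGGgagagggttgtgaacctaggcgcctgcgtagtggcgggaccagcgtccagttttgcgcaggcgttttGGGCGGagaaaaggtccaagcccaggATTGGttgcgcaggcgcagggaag
Hells (chr19:38930740-38930914, plus strand): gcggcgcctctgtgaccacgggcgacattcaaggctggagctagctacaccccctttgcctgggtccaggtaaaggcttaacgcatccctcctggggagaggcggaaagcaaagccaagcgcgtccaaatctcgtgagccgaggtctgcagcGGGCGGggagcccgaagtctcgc

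Every one of these 4 sequences held at least 1 GC box, and those of Trim28 and Cbx5 held 2 each. Over the 250 bases before the RefSeq start, 32.7% of 32851 mouse promoters held a GC box, 33.8% a CCAAT box and 6.02% the E-box. The letters CCGGAAG of the ETS core (6.91% of promoters) and TATAAA of the TATA box (12.4%) were searched in the same way, and no printed stretch held them. The searched letters of different motifs did not overlap in the printed stretches. All 8 genes had more CpG upstream than the median promoter, with 13 to 29 CpG in 250 bases against a median of 6. Among all promoters these counts lay between percentiles 68.5 (Setdb1) and 93.2 (Cbx3). A match is a description of the letters and not of a bound site.

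The stem cell label was checked first. All 8 pluripotency genes on the marker list (Pou5f1, Sox2, Nanog and others) had tested promoter contacts, summing to 3276 to 4508 counts per 1000000 (CPM) in each library, where CPM is on the library size scaled by the trimmed mean of M values (TMM). The 6 fibroblast markers, which feeder cells would carry, summed to 51.0 to 88.1 CPM, with Thy1 and Twist2 at 0 counts. All 4 primitive endoderm and all 4 neural markers were at 0 counts, and the 4 trophectoderm markers summed to 8.01 to 15.0 CPM. Library totals ran from 737955 to 1425304 counts, with both D2-13B6 libraries the deepest. The share of counts on chromosome 11 was 13.9% and 14.0% in D2-13B6, where the other 6 libraries had 10.0% to 10.6%, and this bears on Cbx1 below.

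How strongly each promoter was connected was compared over the same length, the single 5-kb bin that held the main start, in CPM of the library total. Cbx5 at 192 ± 27.2 (SD, n = 8 libraries), Cbx1 at 191 ± 37.2, Morc3 at 185 ± 21.6 and Atf7ip at 151 ± 24.0 formed the upper part of the order, and each overlapped the next over the 8 libraries. Trim28 followed at 107 ± 23.2, overlapping Atf7ip. Below it came Hells at 64.3 ± 9.89, Cbx3 at 50.8 ± 10.8 and Setdb1 at 35.7 ± 4.56. The only gap in this order lay between Trim28 and Hells, whose ranges over libraries did not overlap (78.6 to 147 against 47.9 to 76.8). These SDs span all 4 lines and so include differences between them.

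Contacts of the 8 promoters went to different kinds of place. The share of counts between bins of the same anchor was 72.2% for Cbx5, 66.3% for Morc3, 58.5% for Cbx1, 52.7% for Atf7ip, 41.4% for Trim28 and 25.6% for Cbx3. For Setdb1 and Hells it was 0, because bins of a deposited pair start at least 10 kb apart and their anchors are no wider than 10 kb. Of all counts, Setdb1 had the largest share to anchors with another coding start (79.2%), and Hells the largest share to anchors without one (38.0%). Both ranks depend on anchor width, since the wider anchors of the other genes also held inside contacts. For Cbx5, 25.4% of all counts went to anchors with another coding start and 2.48% to anchors without one. No loop joined anchors of a pair of different genes of the set. Of the 552 loops, 147 reached 5 counts in 2 libraries and were tested, and 405 did not.

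**Figure D1:**
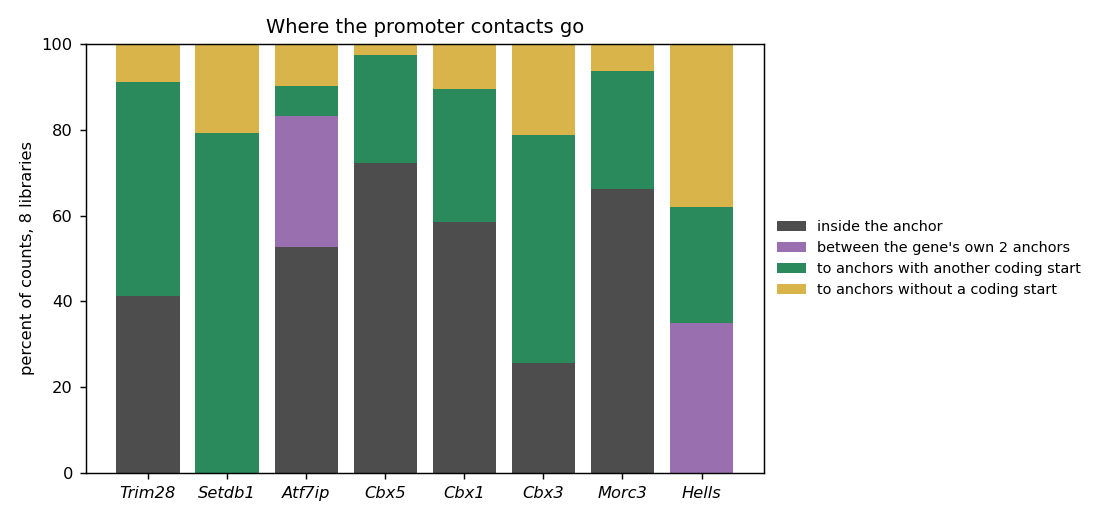
Where the counts of the 8 promoters went, as percent of each gene's counts summed over 8 libraries (y axis), by gene (x axis). Inside-anchor contacts made up 72.2% for Cbx5 and none for Setdb1 and Hells, whose anchors are too narrow to hold such pairs.

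Promoter contacts, summed per gene over all loops at its anchors, were compared between lines with edgeR's quasi-likelihood test, with Benjamini-Hochberg adjustment (FDR) over 11627 promoters and 0.05 as the threshold. All 8 genes passed the filter of 10 counts in 2 libraries. Each library pools many cells, so a contact present in fewer cells and one weaker in every cell cannot be told apart. Between the parental lines, D2 against B6, edgeR called 0 of the 8, while it called 10.9% of all promoters. There 0 of the 8 had an unadjusted p under 0.05, and DESeq2 also called 0. The D2 interval in the B6 genome (B6-13D2 against B6) came with 2 calls, Cbx5 and Atf7ip, both higher, or 25.0% of the 8, against 6.18% of all promoters. Over all promoters, 465 of these calls were higher and 253 lower. D2 against D2-13B6, the same alleles in the D2 genome, gave 3 calls, Cbx1, Trim28 and Morc3, all lower in D2, or 37.5%, against 8.98%. Most calls over all promoters were lower there too, 783 against 261 higher. Averaged over both genomes, the interval gave 2 calls, Cbx5 higher and Cbx1 lower with the D2 interval, or 25.0%, against 9.13%. Yet D2 and D2-13B6 differed by only -0.02 for Cbx5, and B6-13D2 and B6 by 0.10 for Cbx1, neither called. The averaged background effect, D2-genome libraries against B6-genome libraries, gave 3 calls, Trim28, Hells and Cbx1, all with the higher mean in the D2 genome, or 37.5%, against 24.8%. In these sums Trim28 was high only in D2-13B6, and its D2 libraries overlapped those of the B6 genome. For Cbx1 only D2-13B6 was high: both D2 libraries lay below all 4 of the B6 genome, and the averaged effect was below 0 with a scaling factor for each chromosome (-0.06) and in 5-kb bins holding a start (-0.05). The interval effects differed between the genomes for 5 of the 8, Trim28, Atf7ip, Cbx5, Cbx1 and Morc3, all with the lower value in the D2 genome, or 62.5%, against 7.43% of all promoters. The calls over all promoters also leaned that way, 667 lower and 197 higher. With library totals alone they leaned the other way, 263 lower and 391 higher. Each gene is 12.5% of the set, so these shares move in wide steps, and neighbouring genes in shared anchors can contribute to them.

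**Figure D2:**
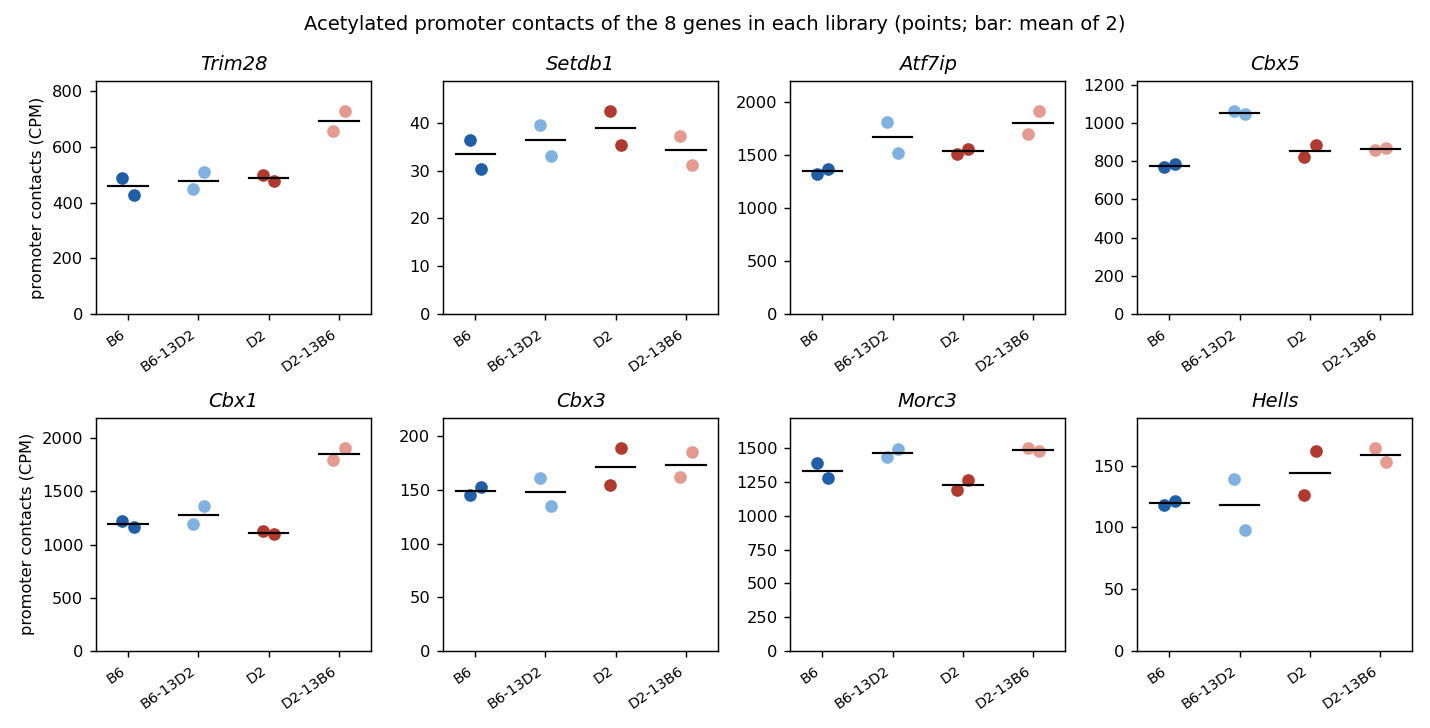
Promoter contacts of the 8 genes in CPM (y axes, each from 0), one point per library and a bar at the mean of the 2 libraries of a line (x axes). Cbx5 is highest in both B6-13D2 libraries (1061 and 1047 CPM), and Trim28 and Cbx1 in both D2-13B6 libraries.

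The medians over the 8 genes lay on both sides of 0. For D2 against B6 the median log2 difference of the 8 was 0.16, where that over all tested promoters was 0.00. For B6-13D2 against B6 it was 0.09 against -0.02, for D2 against D2-13B6 -0.19 against 0.02, and for the averaged interval -0.05 against -0.01. For the background it was 0.18 against 0.02, and for the difference of interval effects -0.43 against 0.02. The last value depended on how contacts of different abundance were scaled. With a trend on abundance removed from each library, the median of the 8 was -0.06. There edgeR called 0 of the 8 (2 with an unadjusted p under 0.05), against 2.74% of all promoters. Library totals alone raised the median of all promoters by 0.16. With them the median of the 8 was -0.27 with 1 call, Cbx1, against 5.62% of all promoters.

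**Figure D3:**
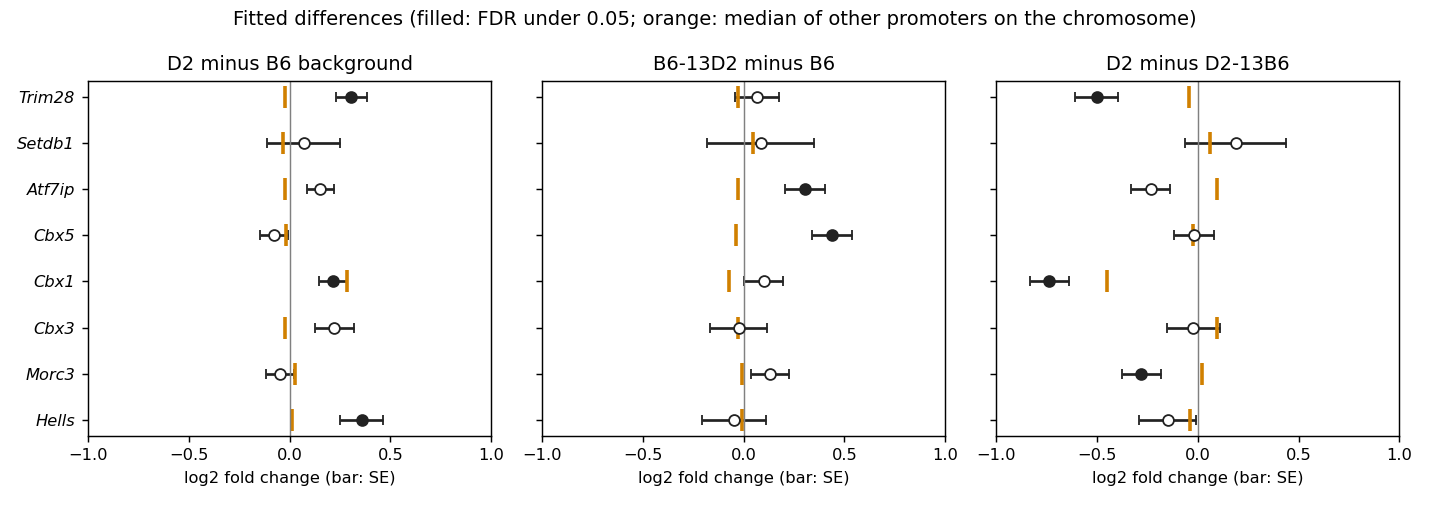
Fitted log2 differences of promoter contacts (x axes) with SE for the 8 genes (y axis) in 3 comparisons, filled where FDR was under 0.05, with an orange mark at the median of the other promoters on the same chromosome. For D2 minus D2-13B6, the orange mark of Cbx1 stands at -0.45 while those of the other 7 genes lie within 0.10 of 0.

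Trim28 had its strongest promoter contacts in the line with the B6 interval in the D2 genome. Its contacts stood at 655 and 726 CPM in the D2-13B6 libraries, at 500.0 and 477 CPM in D2, at 487 and 428 CPM in B6 and at 450 and 508 CPM in B6-13D2. Both D2-13B6 libraries were above the other 6, which overlapped. D2 was lower than D2-13B6 by a log2 difference of -0.50 (SE 0.10, FDR 0.000224), and the averaged background effect was 0.31 (SE 0.076, FDR 0.000854). In the B6 genome the interval made a difference of 0.07 (FDR 0.806, not called). The 2 interval effects differed by -0.57 (SE 0.15, FDR 0.00824), a call lost in 8 of 20 alternatives. Among the 8 were removal of the abundance trend (-0.27, FDR 0.315) and of contacts inside the anchor (-0.38, FDR 0.16). Also among the 8 were the fits without either D2 library, B6-13D2 replicate 2 or D2-13B6 replicate 2. Leaving out D2-13B6 replicate 2 ended the first call (-0.42, FDR 0.0601), and leaving out contacts inside the anchor ended the second (0.18, FDR 0.101). The averaged interval effect was not called (-0.22, FDR 0.0526), but passed without B6 replicate 2 (-0.25, FDR 0.0162) or B6-13D2 replicate 2 (-0.26, FDR 0.0242).

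Of the loops of Trim28, those inside its own anchor and to Mzf1, a zinc finger gene on the next anchor, were called. Inside the anchor, counts came to 287 and 337 CPM in D2-13B6, 199 and 198 CPM in D2, 178 and 150 CPM in B6 and 170 and 201 CPM in B6-13D2. D2-13B6 was above all others, and B6-13D2 overlapped both D2 and B6. With tests over 44706 loops, D2 was lower than D2-13B6 (-0.65, SE 0.14, FDR 0.000682), and the D2 genome higher than the B6 genome (0.50, SE 0.10, FDR 3.16e-05). The first of these calls was lost without D2-13B6 replicate 2 (-0.54, FDR 0.174), and the second held in all 16 alternatives. The interval effects on this loop also differed (-0.83, FDR 0.0119), a call lost in 6 of 16 alternatives, among them without B6 replicate 2, either D2 library, B6-13D2 replicate 2 or D2-13B6 replicate 2 (FDR 0.0515 to 0.261).

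The loop from Trim28 to the Mzf1 anchor (chr7:13050001-13065000, a gap of 5 kb) separated the backgrounds in every library. It stood at 62.5 and 63.9 CPM in D2 and 73.7 and 90.7 CPM in D2-13B6, against 47.4 and 42.5 CPM in B6 and 39.1 and 48.0 CPM in B6-13D2. All 4 libraries with the D2 genome were above all 4 with the B6 genome, a background difference of 0.69 (SE 0.15, FDR 0.000256) that held in all 16 alternatives. The more counted loop to Zfp324 and Zfp446 (726 counts over 8 libraries) was not called, with a background difference of 0.24 (FDR 0.284). These partners, like Mzf1, encode zinc finger proteins and lie near Trim28. Of the 13 other tested promoters within 500 kb of Trim28 and outside its anchor, 4 were called for the background, and over all 13 the log2 differences ran from 0.09 to 0.63.

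**Figure D4:**
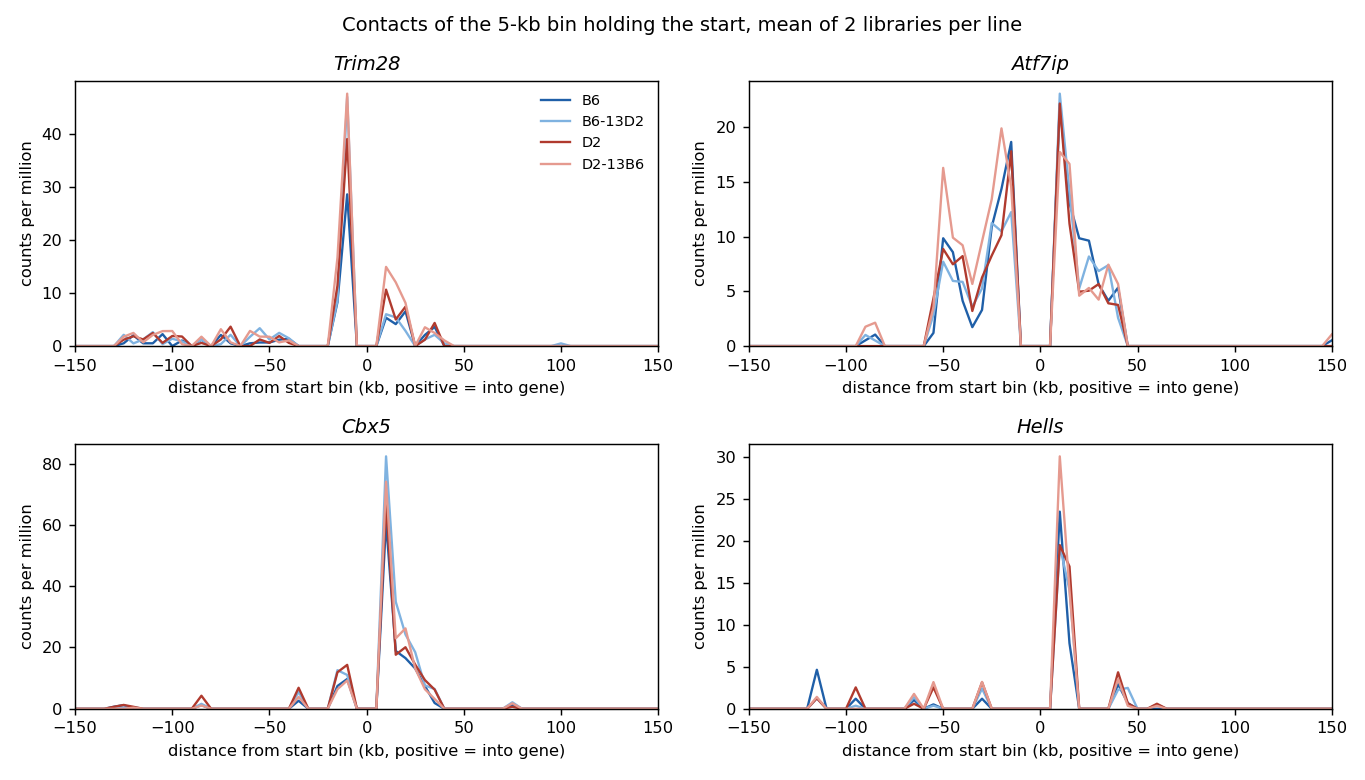
Contacts of the 5-kb bin holding the main start with other 5-kb bins, by distance in kb (x axes, positive into the gene), in CPM of the library total (y axes), as the mean of 2 libraries for each of the 4 lines. Values are highest 10 kb before the start for Trim28 and 10 kb into the gene for Cbx5 and Hells, and Atf7ip has contacts on both sides. Listed pairs start at least 10 kb apart, so 10 kb is the nearest distance recorded.

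Setdb1, the methyltransferase gene, had few contacts and was not called in any comparison. Its values were 36.4 and 30.4 CPM in B6, 39.5 and 33.0 CPM in B6-13D2, 42.3 and 35.3 CPM in D2 and 37.2 and 31.2 CPM in D2-13B6. The lines overlapped, and the 95% interval of the difference between D2 and B6 ran from -0.33 to 0.75 on the log2 scale. Only 298 counts over 8 libraries lay behind these values, and 4 of its 38 loops could be tested. The most counted of them led to the start of 4930558C23Rik (50 counts), to the body of Setdb1 itself (42 counts) and to the start of Arnt, which encodes a partner of the hypoxia factors (39 counts). The Arnt loop held 1 count in each B6 library, 8 and 9 in B6-13D2, 3 and 5 in D2 and 5 and 7 in D2-13B6. B6-13D2 was above B6 with a rate ratio of 6.30 (95% counting interval 1.50 to 56.2), which was not called (FDR 0.173).

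Atf7ip, which encodes the partner of SETDB1, gained contacts with the D2 interval in the B6 genome, and its pair of anchors was joined more strongly in the D2 genome. Summed contacts were 1320 and 1369 CPM in B6, 1806 and 1518 CPM in B6-13D2, 1509 and 1553 CPM in D2 and 1691 and 1907 CPM in D2-13B6. B6 was below all other libraries, and B6-13D2 above B6 by 0.30 (SE 0.097, FDR 0.0411). In the D2 genome the D2 interval had the opposite sign (-0.23, FDR 0.12, not called; -0.32, FDR 0.0137 and called with a scaling factor for each chromosome; 0.11, FDR 0.496 with the abundance trend removed), and the effects differed by -0.54 (SE 0.14, FDR 0.0051). The first call rested on a narrow margin and was lost in 10 of 20 alternatives, among them without B6-13D2 replicate 1 (0.18, FDR 0.514), without B6 replicate 1 (0.27, FDR 0.145) and without either library of D2 or D2-13B6 (FDR 0.0751 to 0.081). The difference of effects was lost without D2 replicate 1 (-0.49, FDR 0.0934), B6-13D2 replicate 1 (-0.41, FDR 0.089) or D2-13B6 replicate 2 (-0.45, FDR 0.128), with library totals alone (-0.37, FDR 0.0711) and with the abundance trend removed, where it was near 0 (-0.02, FDR 0.961). The 8 other tested promoters within 500 kb of Atf7ip and outside its anchors had a median of 0.36 for B6-13D2 against B6, from -0.50 to 0.57, with 2 called. The averaged background effect was not called (0.15, FDR 0.0939), and passed in 4 alternatives, among them without B6-13D2 replicate 1 (0.22, FDR 0.0287).

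Contacts inside the Atf7ip anchor that holds the printed sequence differed between B6-13D2 and B6 too. They came to 663 and 521 CPM in B6-13D2, against 380 and 430 CPM in B6, 439 and 485 CPM in D2 and 489 and 531 CPM in D2-13B6. Both B6-13D2 libraries were above both of B6 and overlapped D2-13B6, a difference from B6 of 0.54 (SE 0.12, FDR 0.00266). That call was lost without B6 replicate 1 (0.45, FDR 0.17), without B6-13D2 replicate 1 (0.37, FDR 0.356) and with the abundance trend removed (0.31, FDR 0.189). The interval effects differed by -0.69 (FDR 0.0142), lost in 8 of 16 alternatives, among them without B6 replicate 1, D2 replicate 1, B6-13D2 replicate 1 or either D2-13B6 library (FDR 0.0735 to 0.271). Contacts inside the upstream anchor differed between B6-13D2 and B6 by 0.01 (FDR 0.989). Without the inside contacts of both anchors, the summed difference between B6-13D2 and B6 was 0.25 (FDR 0.124, not called), against 0.30 with them.

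The loop between the pair of Atf7ip anchors, 10 kb apart, followed the background. It stood at 482 and 511 CPM in D2 and 551 and 674 CPM in D2-13B6, against 392 and 360.0 CPM in B6 and 436 and 407 CPM in B6-13D2. The 4 libraries with the D2 genome were all above the 4 with the B6 genome, by 0.47 on the log2 scale (SE 0.086, FDR 2.82e-06), and this call held in all 16 alternatives. It was the call with the lowest FDR among the background calls of the 147 tested loops.

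Far contacts of Atf7ip moved both ways between backgrounds. A loop to chr6:136990001-137005000, which held no coding start, had 12 and 9 counts in B6 and 20 and 12 in B6-13D2, against 4 and 1 in D2 and 6 and 3 in D2-13B6. It was lower in the D2 genome by -1.99 (SE 0.41, FDR 4.96e-05), with 14 counts against 53, and held in all 16 alternatives. The loop from the upstream Atf7ip anchor to the same place was lower too (-2.39, SE 0.65, FDR 0.00497; 7 counts against 29), and was lost without D2 replicate 1 (-1.92, FDR 0.0609) or D2-13B6 replicate 1 (-1.91, FDR 0.0524). These loops share an anchor and are not independent.

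A loop over a gap of 795 kb went the other way. It joined the start anchor of Atf7ip with chr6:135700001-135720000 in the body of Grin2b, which encodes a glutamate receptor subunit. It held 1 count in each B6 library and 1 and 2 in B6-13D2, against 13 and 6 in D2 and 8 and 7 in D2-13B6. The D2 genome was above the B6 genome by 2.60 (SE 0.58, FDR 0.000283), with 34 counts against 5, and this call held in all 14 alternatives that tested the loop. D2 against B6 was called too (3.21, SE 0.83, FDR 0.00724), with a rate ratio of 10.1 (95% counting interval 2.45 to 89.8), and was lost without B6 replicate 1 (3.02, FDR 0.179) or D2 replicate 1 (2.63, FDR 0.309). This was 1 of 147 tested loops called between the parental lines, against 2.7% of all loops tested.

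**Figure D5:**
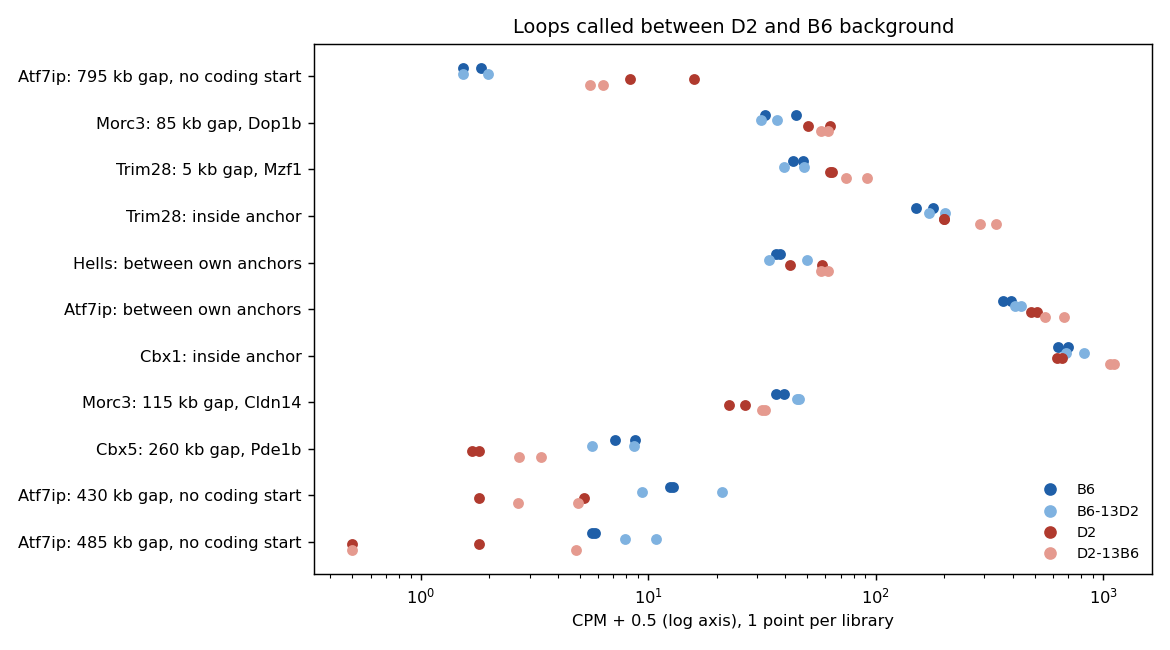
The 11 loops of the 8 genes called between D2-genome and B6-genome libraries (y axis), each point 1 library, in CPM + 0.5 on a log axis (x axis). The loop of Atf7ip over a 795-kb gap is highest in the D2 genome with 34 counts against 5, and the loop with 7 against 29 counts holds the lowest points, at 0 counts.

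Cbx5, which encodes HP1 alpha, had its highest contacts in the line with the D2 interval in the B6 genome. The values were 1061 and 1047 CPM in B6-13D2, 771 and 783 CPM in B6, 820 and 882 CPM in D2 and 857 and 867 CPM in D2-13B6. Both B6-13D2 libraries were above the other 6, and both B6 libraries were below the 4 of the D2 genome. B6-13D2 exceeded B6 1.36-fold (log2 0.44, SE 0.099, FDR 0.0013), whereas D2 and D2-13B6 differed by -0.02 (95% interval -0.21 to 0.17, not called). With the abundance trend removed these differences were 0.30 and 0.24 (the second with FDR 0.0599), so the contrast between the genomes depended on that scaling. The 10 other tested promoters within 500 kb of Cbx5 had a median of -0.08 for B6-13D2 against B6, from -0.64 to 0.18. The interval effects differed by -0.46 (SE 0.14, FDR 0.0246), which was lost in 10 of 20 alternatives, among them without any single library of D2, B6-13D2 or D2-13B6 (FDR 0.0531 to 0.227), with the abundance trend removed (-0.06, FDR 0.865) and without inside contacts (-0.13, FDR 0.748). The averaged interval effect was 0.21 (SE 0.07, FDR 0.0395) and was lost without any single library other than B6 replicate 2 (FDR 0.0532 to 0.222).

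Contacts inside the Cbx5 anchor were also higher in B6-13D2 than in B6. These were 748 and 758 CPM in B6-13D2, 528 and 521 CPM in B6, 587 and 674 CPM in D2 and 628 and 638 CPM in D2-13B6. B6-13D2 was again above the other libraries and B6 below them, and these lines differed by 0.52 (SE 0.12, FDR 0.00307). Removing B6-13D2 replicate 2 ended this call (0.49, FDR 0.0647), as did removing the abundance trend (0.27, FDR 0.255). Without the inside contacts the summed difference was 0.20 (FDR 0.368, not called), against 0.44 with them. The 2 inside calls of the set, at Cbx5 and Atf7ip, were its only loops called for B6-13D2 against B6, against 0.886% of all loops.

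The distal partners of Cbx5 were Copz1 (472 counts), Sp1, which encodes a factor binding GC boxes, over a gap of 770 kb (264 counts) and the integrin gene Itga5 (155 counts). None of these 3 loops was called. The Sp1 loop held 47.4 and 34.7 CPM in B6-13D2 and 18.5 and 30.6 CPM in B6, a difference of 0.75 that did not pass (FDR 0.257). One rarely counted loop, to the start of the phosphodiesterase gene Pde1b, was lower in the D2 genome, with 8 and 5 counts in B6, 5 and 11 in B6-13D2, 1 and 1 in D2 and 3 and 4 in D2-13B6. The backgrounds differed by -1.95 (SE 0.56, FDR 0.0097), 9 counts against 29, and the call was lost without B6 replicate 1 (-1.87, FDR 0.062) or B6-13D2 replicate 2 (-1.73, FDR 0.111).

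Cbx1, which encodes HP1 beta and lies on chromosome 11, had the largest difference in summed contacts of the set with the main settings. Its contacts stood at 1795 and 1907 CPM in D2-13B6, 1128 and 1097 CPM in D2, 1221 and 1167 CPM in B6 and 1192 and 1362 CPM in B6-13D2. D2-13B6 was above all others, and D2 was lower than it by -0.73 (SE 0.097, FDR 2.5e-09). The median of the 1017 other promoters on chromosome 11 was -0.45 in the same comparison, and the 13 other tested promoters within 500 kb ran from -1.24 to -0.30. With a scaling factor for each chromosome, the Cbx1 difference was -0.27 (FDR 0.0545), the averaged interval effect went from -0.32 (FDR 0.0006) to -0.05 (FDR 0.719), and the averaged background effect from 0.22 (FDR 0.0122) to -0.06 (FDR 0.594). For D2 against D2-13B6, Trim28 (-0.45), Atf7ip (-0.32) and Morc3 (-0.28) then had larger differences than Cbx1. The share of counts on chromosome 11 and the D2-13B6 line cannot be told apart in this design. The difference of interval effects remained past the threshold with that scaling (-0.43, FDR 0.0223; without it -0.83, FDR 2.37e-06) and was lost with the abundance trend removed (-0.35, FDR 0.056). The background call was also lost without D2 replicate 1 (0.19, FDR 0.092), B6-13D2 replicate 1 (0.17, FDR 0.104) or D2-13B6 replicate 2 (0.19, FDR 0.0887).

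The called loops of Cbx1 shared that pattern. Inside the anchor, D2-13B6 held 1067 and 1117 CPM against 659 and 622 CPM in D2, a difference of -0.77 (FDR 3.18e-08). The loop to Gip and Igf2bp1 over a gap of 740 kb held 48.2 and 61.9 CPM in D2-13B6 and 16.5 and 26.1 CPM in D2 (-1.38, FDR 0.000185), and the loop to the Skap1 start held 39.4 and 38.2 CPM against 15.3 and 13.0 CPM (-1.44, FDR 0.0019). D2-13B6 was above D2 in each. With the chromosome scaling the 3 differences were -0.30 (FDR 0.272), -0.92 (FDR 0.114) and -0.97 (FDR 0.199). The Gip and Igf2bp1 call was also lost without D2 replicate 1 (-1.09, FDR 0.17) or D2-13B6 replicate 2 (-1.20, FDR 0.0578), and the Skap1 call without D2 replicate 1 (-1.58, FDR 0.0714) or D2 replicate 2 (-1.33, FDR 0.12). With the Trim28 anchor these were the 4 loops called for D2 against D2-13B6, 2.72% of those tested, against 0.928% of all loops. The Cbx1 inside loop was the only one called for the averaged interval (-0.29, FDR 0.0356), against 1.01% of all loops, and without any single library other than B6 replicate 2 and B6-13D2 replicate 2 it was not called (FDR 0.0682 to 0.305). The loop to Sp2, the most counted partner with 604 counts, was not called.

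The difference of interval effects was called for 4 loops, 2.72% of those tested, against 0.611% of all loops. They were the inside contacts of Trim28, Atf7ip and Cbx1 (-0.95, FDR 5.7e-06) and the Cbx1 loop to Gip and Igf2bp1 (-1.46, FDR 0.0411). With the abundance trend removed edgeR called 0 of the 147, against 0.195% of all loops. DESeq2 called 4, against 8.27% of the 2236 loops to which it gave an FDR. The Gip and Igf2bp1 loop was also lost without either B6 library, D2 replicate 1, B6-13D2 replicate 2 or either D2-13B6 library (FDR 0.0508 to 0.634).

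Cbx3, which encodes HP1 gamma, was not called in any comparison with the main settings. It had 146 and 153 CPM in B6, 161 and 135 CPM in B6-13D2, 154 and 189 CPM in D2 and 162 and 186 CPM in D2-13B6. The backgrounds overlapped, with a difference of 0.22 (95% interval 0.03 to 0.41, FDR 0.0829). That difference passed with a scaling factor for each chromosome (0.25, FDR 0.0428) and without B6-13D2 replicate 1 (0.28, FDR 0.0308). Its anchor also holds the start of Hnrnpa2b1, with which Cbx3 shares a divergent promoter region. The most counted partner was the start of Snx10 (608 counts), at 71.9 and 83.4 CPM in D2 and 75.9 and 90.7 CPM in D2-13B6 against 59.7 and 59.8 CPM in B6 and 68.0 and 62.0 CPM in B6-13D2. The 4 D2-genome libraries lay above the other 4, and the difference did not pass (0.37, FDR 0.0743), except with the chromosome scaling (0.42, FDR 0.0296) and with the doubled count minimum (0.37, FDR 0.043). An anchor without a coding start in the body of Snx10 (85 counts) and the start of Skap2 over a gap of 520 kb (54 counts) followed.

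Morc3 contacts were lowest in D2, by a margin near the threshold. They were 1191 and 1267 CPM in D2, 1502 and 1480 CPM in D2-13B6, 1394 and 1277 CPM in B6 and 1433 and 1494 CPM in B6-13D2. D2 was below both D2-13B6 libraries, by -0.28 (SE 0.096, FDR 0.048), and the interval effects differed by -0.41 (SE 0.14, FDR 0.0426). Each of these calls was lost in 14 of 20 alternatives, with the sign turned when the abundance trend was removed (0.04 and 0.07). Leaving out any one library of D2 or D2-13B6 ended the first (FDR 0.156 to 0.417), and leaving out any one library except B6 replicate 1 ended the second (FDR 0.0608 to 0.269).

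A pair of Morc3 loops differed between backgrounds in opposite directions. The loop to a start of Dop1b over a gap of 85 kb (chr16:93705001-93720000) held 62.5 and 49.5 CPM in D2 and 61.3 and 56.9 CPM in D2-13B6, against 31.9 and 43.8 CPM in B6 and 30.9 and 36.2 CPM in B6-13D2. All D2-genome libraries were higher, by 0.70 (SE 0.17, FDR 0.000911), a call lost only with DESeq2 in place of edgeR (0.69, FDR 0.068) among 16 alternatives. The loop to Cldn14, which encodes a claudin of tight junctions, held 25.9 and 22.2 CPM in D2 and 32.1 and 31.0 CPM in D2-13B6, against 39.1 and 35.9 CPM in B6 and 45.3 and 44.3 CPM in B6-13D2. All D2-genome libraries were lower here, by -0.57 (SE 0.19, FDR 0.0362), and the call was lost without any single library other than B6 replicate 2 (FDR 0.0531 to 0.146) and with DESeq2 (FDR 0.268). The contacts inside the anchor, 66.3% of the counts, differed by 0.00 (FDR 0.999).

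Hells contacts were higher in the D2 genome. They stood at 126 and 161 CPM in D2 and 164 and 153 CPM in D2-13B6, against 118 and 122 CPM in B6 and 139 and 97.6 CPM in B6-13D2. One B6-13D2 library overlapped the D2-genome libraries, and the backgrounds differed by 0.36 (SE 0.11, FDR 0.00612). The call was lost without D2 replicate 2 (0.26, FDR 0.133), without B6-13D2 replicate 2 (0.22, FDR 0.144), with DESeq2 (0.34, FDR 0.125) and when only 5-kb bins holding a start were counted (0.31, FDR 0.0828). The loop between its pair of anchors, 34.9% of its counts, stood at 41.3 and 57.4 CPM in D2 and 56.9 and 61.2 CPM in D2-13B6 against 36.0 and 37.2 CPM in B6 and 49.4 and 33.2 CPM in B6-13D2. It was called at 0.49 (SE 0.17, FDR 0.0438) and lost in 10 of 16 alternatives, among them without any one library except D2 replicate 1 and B6-13D2 replicate 1 (FDR 0.0647 to 0.291). Other frequent partners were anchors without a coding start in the body of Hells (64 counts) and of Tbc1d12 (62 counts).

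Counted over loops, 11 of the 147 tested were called between backgrounds, 7 higher and 4 lower in the D2 genome, or 7.48% against 8.89% of all 44706 loops tested. The 11 belonged to Trim28 (2), Atf7ip (4), Cbx5 (1), Cbx1 (1), Morc3 (2) and Hells (1). With DESeq2 in place of edgeR, 4 were called, against 6.09% of the 20437 loops to which it gave an FDR. The Cbx1 inside loop, at 0.24 (FDR 0.0377), had the opposite sign with a scaling factor per chromosome (-0.02, FDR 0.941) and was lost in 11 of 16 alternatives, among them without B6 replicate 2, D2 replicate 1, B6-13D2 replicate 1 or either D2-13B6 library (FDR 0.0745 to 0.299).

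The other genes of the pathway, 54 in 7 lists, were called about as often as all promoters between backgrounds: 13 of 53 tested, 10 higher and 3 lower, or 24.5% against 24.8%. Chaf1b, on the list of remodellers and histone chaperones, shares the Morc3 anchor, so its contacts and those of Morc3 are not independent. For D2 against B6 there were 5 calls (9.43% of those tested, against 10.9% of all promoters) and for B6-13D2 against B6 4 (7.55% against 6.18%). D2 against D2-13B6 gave 9 (17.0% against 8.98%), the averaged interval 4 (7.55% against 9.13%) and the difference of interval effects 7, all lower (13.2% against 7.43%). Over all promoters, 667 of the 864 calls for that difference were lower. The 9 calls for D2 against D2-13B6 were spread unevenly over the lists. Of the SUMO pathway, which modifies TRIM28 and its partners, 4 of 9 were lower in D2 (Uba2, Sae1, Pias4 and, on chromosome 11, Sumo2), with a median of -0.01 over the 9. Of the remodellers and histone chaperones 2 of 9 were lower, of the KRAB zinc finger genes 2 of 8 were lower and of the HUSH and MORC genes 1 of 5 was higher. None of the 8 methyltransferases and partners, the 11 deacetylase, NuRD and demethylase genes or the 3 TRIM relatives was called there. Between backgrounds the histone methyltransferase Ehmt1 was higher in the D2 genome (0.61, SE 0.13, FDR 0.000122), as was Rbbp7, a histone-binding subunit of NuRD (0.43, SE 0.098, FDR 0.000286). The demethylase gene Kdm1a (-0.35, SE 0.074, FDR 0.000103) and the deacetylase gene Hdac3 (-0.28, SE 0.082, FDR 0.00515) were lower.

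For the averaged interval, Zfp459, a KRAB zinc finger gene on chromosome 13, was lower with the D2 interval. It had 232 ± 7.90 CPM in B6-13D2 and 252 ± 24.0 in D2 (SD, n = 2 libraries each) against 372 ± 28.6 in B6 and 361 ± 21.2 in D2-13B6, a difference of -0.60 (SE 0.082, FDR 1.62e-08). Both pairs went the same way at this gene. Uba2, a subunit of the SUMO-activating enzyme, was lower too (-0.32, SE 0.083, FDR 0.00579), and Resf1, a partner of SETDB1 (0.29, SE 0.088, FDR 0.0255), was higher.

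The promoter whose contacts over the 8 libraries were most like each gene's was found by Pearson correlation of log2 CPM over the 10609 to 11238 tested promoters on other chromosomes. Trim28 was most like Hnrnpab (r = 0.991), Atf7ip most like Kat6b (r = 0.977), Cbx5 most like Diaph1 (r = 0.991), Morc3 most like Rnf135 (r = 0.993) and Cbx1 most like Cbx7 (r = 0.982). For Setdb1, Cbx3 and Hells the closest were Katnal1 (r = 0.921), Tfdp2 (r = 0.956) and Gm9970 (r = 0.946). Hnrnpab and Rnf135 lie on chromosome 11, whose share of counts was raised in the line with the B6 interval in the D2 genome. Whether that share bears on their likeness to Trim28 and Morc3 was not tested. The 8 points of each correlation are pairs of libraries of 4 lines, so they share line and depth, and the highest of so many values is a description only.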

How the data were processed

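The members and gene lists were chosen with earlier results of these data known. Per the file headers and values, the deposited loop table and library files hold raw counts of read pairs, not normalized; listed bin pairs start 10 to 2000 kb apart, so shorter contacts are absent. The submitters' processing notes name BWA 0.7.18, SAMtools 1.19.2, edgeR 3.34.1 and the build mm10; the loop caller, duplicate handling and any strain-specific mapping are not given in the sources used here. Per the labels' protocols, libraries were sequenced as 150 bp pairs, and the totals here hold only pairs counted in loops. Counts carry no molecular identifiers, so the intervals (95%, exact) cover counting error only.

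Anchors were linked to GENCODE M21 starts (GRCm38) within 5 kb. Counts were summed per protein-coding gene (at least 10 in 2 libraries) or kept per loop (at least 5 in 2 libraries), and fitted over all genes or loops in edgeR 4.0.16 (R 4.3.3, TMM, 4 line means, robust quasi-likelihood, Benjamini-Hochberg FDR 0.05), checked on simulated counts. Library totals equalled those of the library files; replicate libraries differed by more than sampling noise (chi-square over degrees of freedom 1.05 to 1.2), and 0 columns belonged to other samples. All 8 genes are named; loops are named if inside an anchor, among the 3 most counted per gene, or called. Other pathway genes are named if among the highest or lowest called for the averaged interval or background; some items that these rules name are not reported here. Alternatives changed the normalization (RLE, none, per chromosome, abundance trend), the tool (DESeq2 1.42.0), the filter, the start window (0 or 10 kb), inside contacts, the replicate block and each library; counting only 5-kb bins holding a start was added after seeing the data.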

Additional observations from a re-analysis of the deposited data

Results flagged for a closer look

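In groups of 4 libraries, 32 sets of promoter contacts were tested for a library standing apart with Dixon's gap ratio (critical value 0.829), which chance passes in about 1 of 20 groups. Atf7ip in B6-13D2 replicate 1, at 1806 CPM, stood apart from the other 3 libraries with the D2 interval.

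The effect of the interval differed between the D2 and B6 genomes by the interaction term of edgeR's quasi-likelihood fit for 5 of the 8 genes. That is 62.5%, against 7.43% of all promoters. In log2 units the differences were -0.57 for Trim28 (FDR 0.00824), -0.54 for Atf7ip (FDR 0.0051), -0.46 for Cbx5 (FDR 0.0246), -0.83 for Cbx1 (FDR 2.37e-06) and -0.41 for Morc3 (FDR 0.0426). With the abundance trend removed edgeR called 0 of the 8, against 2.74% of all promoters, and the Morc3 value changed sign (0.07).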

How the results depend on the processing

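Among tests of single genes and loops, 4153 alternative values in all kept their side of the threshold, 167 calls were lost with the direction kept, 29 appeared and 5 called values changed sign; the causes were not tested. Of the 4153, 294 were uncalled values that changed sign, 37 of them with the abundance trend removed. The sign changes of called values were Cbx1 for the background with a scaling factor per chromosome (-0.0564) and in 5-kb bins holding a start (-0.0491, chosen after seeing the data), its inside loop with the chromosome scaling (-0.0170), and Morc3 with the abundance trend removed, for D2 against D2-13B6 (0.0395) and for the difference of interval effects (0.0719).

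Counts of the 8 promoters called moved by over 1.5 times as follows. Percentages in brackets are the shares of all promoters called under the same setting. For D2 against B6 (0) there was 1 without contacts inside an anchor (9.75%). For B6-13D2 against B6 (2) there was 1 with library totals alone (5.52%), with the trend removed (4.3%) and with the replicate block (4.81%), and 0 without inside contacts (5.25%). For the averaged interval (2) there was 1 with the chromosome scaling (5.87%), the replicate block (7.41%), no inside contacts (7.87%) or 5-kb bins (3.98%). For the background (3) there was 1 in 5-kb bins (16%). For the difference of interval effects (5) there was 1 with totals alone (5.62%), 0 with the trend removed (2.74%) and 3 with the replicate block (5.5%). It had 2 without inside contacts (5.9%) and 3 in 5-kb bins (4.04%). Leaving out 1 library at a time moved the counts for every comparison but D2 against B6, and moved the share of all promoters called for each of the 6.

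Counts of member loops called moved likewise. Percentages in brackets are the shares of all loops called under the same setting, for DESeq2 among the loops to which it gave an FDR. For D2 against B6 (1) there were 0 with DESeq2 (2.35%). There were 2 with the chromosome scaling (2.73%), the trend removed (2.82%) or the doubled count minimum (6.23%). For B6-13D2 against B6 (2) there were 0 with the trend removed (0.604%). For D2 against D2-13B6 (4) there were 2 with DESeq2 (8.94%) and 1 with the chromosome scaling (0.463%). For the averaged interval (1) there were 2 with DESeq2 (3.97%) or the trend removed (1.14%), and 4 with the doubled minimum (2.7%). There were 0 with the chromosome scaling (0.769%), the replicate block (0.774%) or the halved minimum (0.423%). For the background (11) there were 4 with DESeq2 (6.09%). For the difference of interval effects (4) there were 2 with totals alone (0.407%), the chromosome scaling (0.47%) or the replicate block (0.421%), and 0 with the trend removed (0.195%). Leaving out 1 library at a time gave 0 to 2, 1 to 2, 2 to 4, 0 to 3, 7 to 10 and 1 to 3.

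Replicate numbers did not pair libraries (correlations of replicate differences -0.18 to 0.034), so the replicate block shares only a number. Setdb1 (298), Hells (1139) and Cbx3 (1350) had the fewest counts over 8 libraries, and 405 of 552 loops were too rarely counted to test.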
